A study of Mus musculus and Homo sapiens with 10 samples.

Results

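The loci of 5 transcription factors that direct blood lineages other than the erythroid one, SPI1, CEBPA, PAX5, EBF1 and RUNX1, were examined in K562, a human erythroleukaemia line that carries the BCR-ABL1 fusion. Each locus was a fixed hg19 window, namely chr11:47365000-47420000 for SPI1, chr19:33770000-33840000 for CEBPA, chr9:36820000-37050000 for PAX5, chr5:158110000-158540000 for EBF1 and chr21:36150000-36435000 for RUNX1. Members were all enriched regions, called islands, that overlapped a window in the lists of 3 chromatin marks. They numbered 162 of 360312 islands: 48 of 72662 for H3K122ac, 73 of 173981 for H3K27ac and 41 of 113669 for H3K4me1. Chromatin of K562 cells at passage 14, for which no treatment is labelled, was cut with micrococcal nuclease and immunoprecipitated, with 1 library per mark. The series also holds a K562 input library at passage 14, for which no list of islands was analysed. Its libraries from mouse embryonic stem cells were not used here. No expression was measured, so the label of the line was not checked against marker genes.

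SPI1 encodes PU.1, an ETS factor needed for myeloid and B cells, and CEBPA encodes a bZIP factor of granulocyte development. PAX5 and EBF1 act together in B-cell commitment, and RUNX1 is a core factor of blood stem and progenitor cells and of megakaryocytes, with a distal and a proximal promoter. All 5 genes are transcribed towards lower coordinates in hg19, so a start site lies nearer the high-coordinate end of the gene. H3K27ac sits on the histone tail at active promoters and enhancers, H3K122ac lies on the side of the globular domain where DNA wraps the histone core, and H3K4me1 is typical of enhancers, active or not. One question of the study is whether H3K122ac is found at regulatory elements where H3K27ac is not.

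For each island the lists give the reads of the immunoprecipitated (ChIP) library, the reads of a background library and the authors' fold. That fold is the ratio of both counts divided by a library ratio, which was 0.258 for H3K122ac, 0.688 for H3K27ac and 0.581 for H3K4me1. Folds were therefore compared within a list, and a percentile below is the rank of an island's fold among all islands of its own list with at least 10 background reads. Intervals on folds are exact 95% intervals of the counts and cover counting error only. With 1 library per mark there was no replicate check, and no test between conditions was possible. The lists held 18283729 H3K122ac, 34195325 H3K27ac and 35562145 H3K4me1 reads inside islands. Total library depth was not used here.

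The loci fell into 2 widely marked windows, SPI1 and RUNX1, a thinly marked one, CEBPA, and a pair that was nearly bare, PAX5 and EBF1. H3K122ac islands covered 52.4% of the SPI1 window, 14.0% of CEBPA, 4.0% of PAX5, 1.53% of EBF1 and 51.8% of RUNX1, against 6.30% over the chromosomes present in all 3 lists. H3K27ac covered 50.9% of the SPI1 window, 4.86% of CEBPA, 0.522% of PAX5, 0.512% of EBF1 and 84.6% of RUNX1, against 10.4% over these chromosomes. H3K4me1 covered 58.2% of the SPI1 window, 13.4% of CEBPA, 3.13% of PAX5, 2.23% of EBF1 and 76.1% of RUNX1, against 12.0%. In CEBPA, PAX5 and EBF1, H3K122ac covered more bases than H3K27ac, while in RUNX1 H3K27ac covered more. In SPI1 H3K122ac covered slightly more, but H3K27ac islands joined across 600 bp, the gap used for H3K122ac, covered 54.2%. The H3K27ac list is the wider of the pair over the genome. With islands limited to a fold of 3 or more, H3K27ac covered 19.7% of RUNX1 and 32.7% of SPI1, so the order of these windows turned round within the H3K27ac list.

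**Figure D1:**
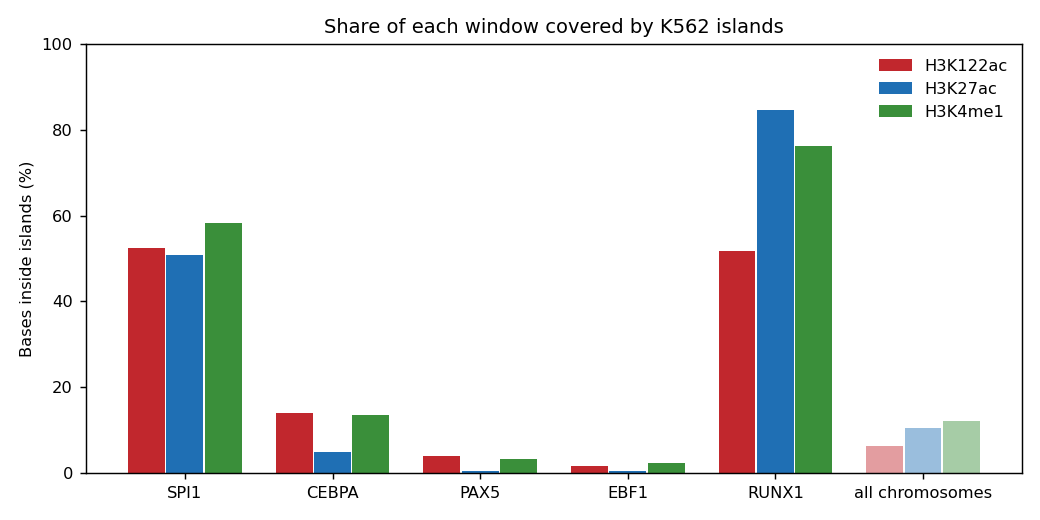
Share of the bases of each window inside K562 islands (vertical axis, %) for H3K122ac, H3K27ac and H3K4me1, with the share over all chromosomes in paler bars at the right. Bars of SPI1 and RUNX1 lie between 50.9% and 84.6%, and those of PAX5 and EBF1 at or below 4.0%, under the genome-wide bars of every mark.

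The same coverage was read against stretches of equal length laid end to end along the chromosomes, unsequenced gaps included. Only 3 of the 285-kb stretches, 0.0282%, held as much H3K27ac as the RUNX1 window, and 26 (0.245%) held as much H3K122ac and 15 (0.141%) as much H3K4me1. The stretches include those that overlap RUNX1 itself. Among 55-kb stretches, 1.36% held as much H3K122ac as SPI1, 5.85% as much H3K27ac and 4.64% as much H3K4me1. For CEBPA the shares were 15.7%, 34.4% and 29.5%, for PAX5 41.0%, 57.1% and 51.2%, and for EBF1 59.0%, 63.6% and 59.2%, in the order H3K122ac, H3K27ac and H3K4me1. Counting only stretches with an island of any mark, which leaves out empty stretches and with them the gaps, the shares were 2.44%, 10.4% and 8.28% for SPI1, and 26.7%, 58.6% and 50.3% for CEBPA. They were then 58.1%, 80.8% and 72.5% for PAX5, 77.2%, 83.2% and 77.4% for EBF1, and 0.338%, 0.039% and 0.195% for RUNX1. The PAX5 and EBF1 windows were thus not unusual in coverage for their length, whereas SPI1 and RUNX1 were at the upper end.

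**Figure D2:**
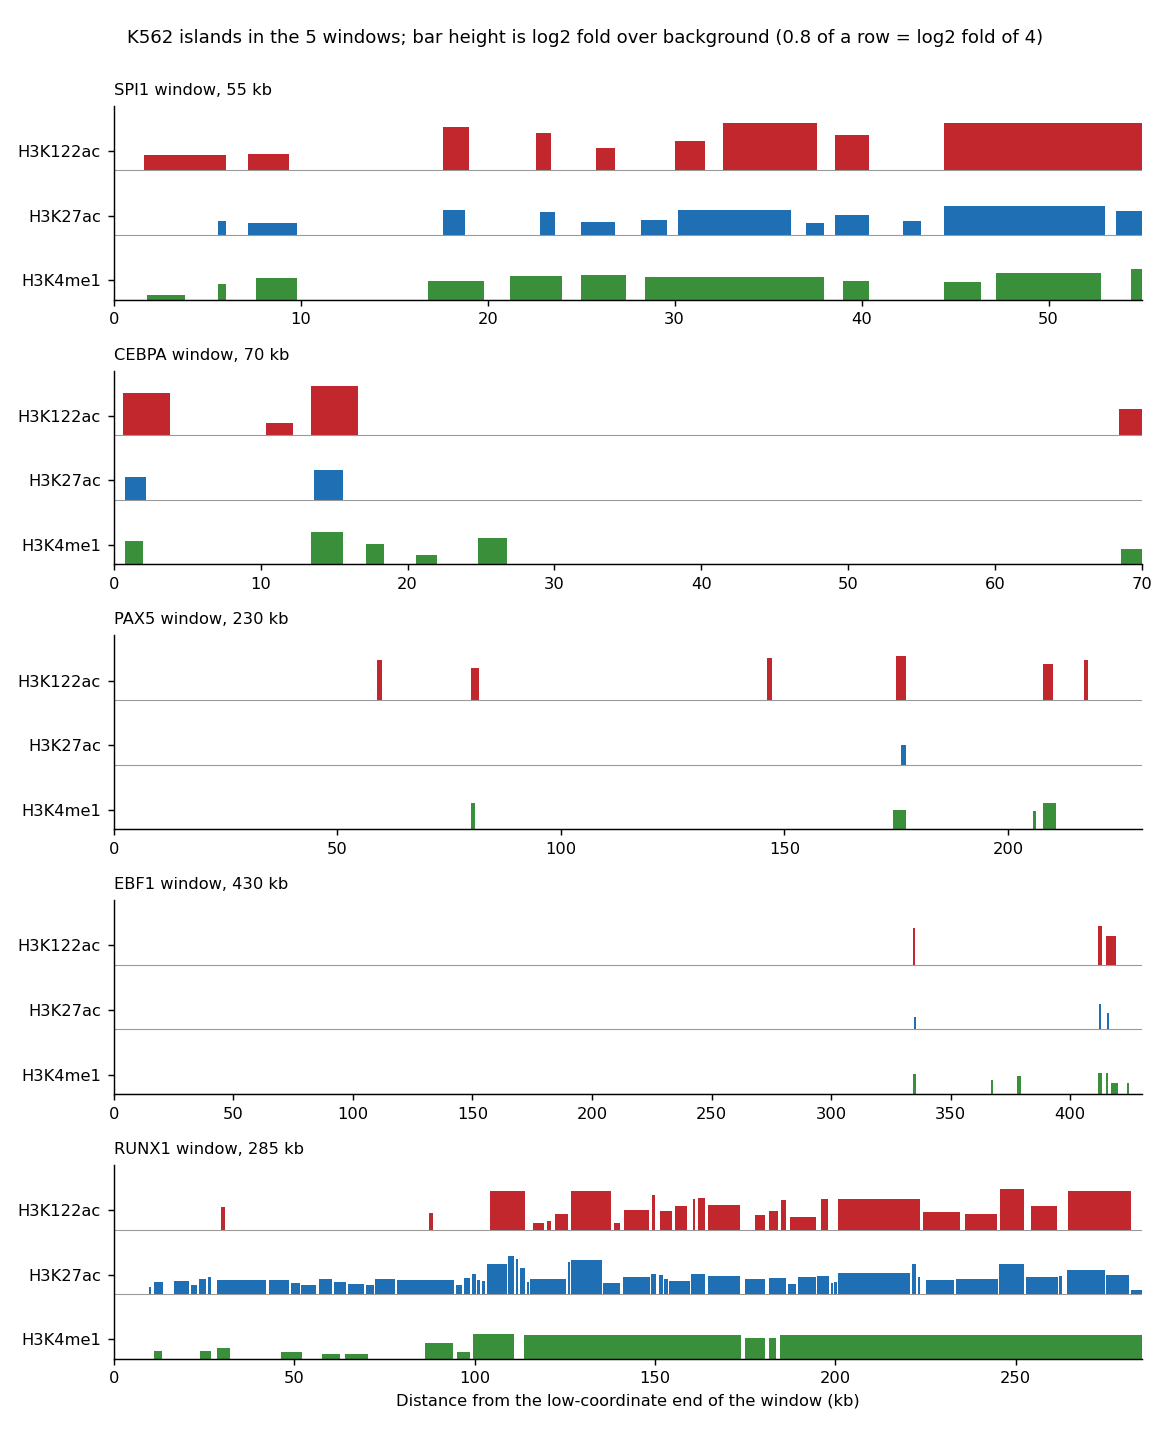
Islands of the 3 marks along each window, with distance from the low-coordinate end in kb on the horizontal axis and a row per mark. Bar height is the log2 of the authors' fold, on one scale throughout. Islands of any mark leave 30.2% of SPI1 and 7.72% of RUNX1 free, while the first 334.4 kb of EBF1 hold no island.

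SPI1 carried the 3 marks together. Of its 9 H3K122ac islands, 9 met H3K27ac and 9 met H3K4me1, against 78.1% and 85.8% of the whole H3K122ac list. Joined across marks, the islands formed 9 regions over 42 kb, and 8 of these regions held all 3 marks. The exception was a weak H3K27ac island, chr11:47407201-47408200, with 58 reads over 40 background reads and a fold of 2.11.

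SPI1 had 3 H3K122ac islands of high fold. The island at chr11:47397601-47402600 had 1098 ChIP reads over 338 background reads, a fold of 12.6 (interval 11.1 to 14.3) and the percentile 85.7. The longest, chr11:47409401-47423200, spanned 13800 bp and ran past the edge of the window. It had 2089 reads over 648 and a fold of 12.5 (11.4 to 13.7), and it ranked 597 by length in the list. The third, chr11:47382601-47384000, lay nearer the low-coordinate end, with 230 reads over 86, a fold of 10.4 (8.05 to 13.4) and the percentile 79.3. The 3 intervals overlap, and differences between these folds were not tested.

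H3K27ac was highest at chr11:47409401-47418000, inside the longest H3K122ac island, with 1451 reads over 444, a fold of 4.75 (4.27 to 5.30) and the percentile 91.1. H3K4me1 was highest at chr11:47419401-47423600, with 591 reads over 192, a fold of 5.30 (4.50 to 6.27) and the percentile 92.0. Most of this island lies beyond the window, whose upper edge it crosses. The longest H3K4me1 island, chr11:47393401-47403000, spanned 9600 bp with a fold of 3.29, over the H3K122ac island at chr11:47397601-47402600. The weakest H3K122ac and H3K4me1 islands lay at the low-coordinate end. There, at chr11:47366601-47371000 and chr11:47372201-47374400, H3K122ac folds were 2.25 (1.86 to 2.72) and 2.35 (1.72 to 3.18), at percentiles 11.3 and 12.8.

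A place in SPI1 allows the counts of both acetylations to be set side by side without any difference in limits. At chr11:47403601-47405400 both lists held an island with the same ends and the same 127 background reads. H3K122ac had 218 ChIP reads and H3K27ac 251, yet the folds were 6.65 and 2.87, since the library ratio is lower for H3K122ac. Their percentiles were 60.8 and 69.8. A higher H3K122ac fold at a locus thus does not mean that more reads were seen.

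CEBPA held 2 strong sites with all 3 marks and little else. At chr19:33783401-33786600 H3K122ac had 530 reads over 146, a fold of 14.1 (11.7 to 17.0), the highest of any of the 48 H3K122ac islands, and the percentile 88.7. H3K27ac at chr19:33783601-33785600 had 314 reads over 92, a fold of 4.96 (3.92 to 6.33) and the percentile 92.1. H3K4me1 at chr19:33783401-33785600 had 348 reads over 107, a fold of 5.60 (4.50 to 7.02) and the percentile 93.9. This was the highest H3K4me1 fold in the 5 windows.

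The other site lay at the low-coordinate edge, where H3K122ac at chr19:33770601-33773800 had 325 reads over 130 and a fold of 9.68 (7.87 to 12.0). H3K27ac at chr19:33770801-33772200 had 176 reads over 77 and a fold of 3.32 (2.53 to 4.40), and H3K4me1 at chr19:33770801-33772000 had 127 reads over 63 and a fold of 3.47 (2.55 to 4.77). At both sites the H3K122ac island was longer than its H3K27ac island, 3200 bp against 2000 bp at the first and 3200 bp against 1400 bp at the edge. The gap allowed inside an island also differed, at 600 bp for H3K122ac and 200 bp for H3K27ac.

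Past these sites CEBPA showed H3K4me1 without acetylation. Among its 6 H3K4me1 islands 3 met neither acetylation, against 22.2% of the whole H3K4me1 list, a difference that was not tested. They lay in sequence at chr19:33787201-33788400, chr19:33790601-33792000 and chr19:33794801-33796800, with folds of 2.94 (2.04 to 4.29), 1.64 (1.18 to 2.27) and 4.16 (3.30 to 5.29). The last, with 249 reads over 103, ranked at the percentile 80.1, so it was not a marginal island. From there no island of any mark was found for 41.6 kb. A last H3K122ac island at the upper edge, chr19:33838401-33840000, met H3K4me1 but not H3K27ac, with 101 reads over 95 and a fold of 4.12 (3.08 to 5.51). The remaining one, chr19:33780401-33782200, met neither mark and was weak, with 52 reads over 107 and a fold of 1.88 (1.32 to 2.64).

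PAX5 carried H3K122ac mostly without H3K27ac. Of its 6 H3K122ac islands 1 met H3K27ac, 16.7% (Wilson 95% interval 3.01 to 56.4%), against 78.1% of the whole list. These are 6 neighbouring islands of 1 library, so the interval covers counting error only. Of the 6, 3 met H3K4me1, against 85.8% of the whole list. The other 3 met neither other mark, a class that made up 9.97% of the whole H3K122ac list.

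The PAX5 place with all 3 marks had the highest H3K122ac fold, but not the highest H3K4me1 fold. Its H3K122ac interval overlapped those of all other PAX5 H3K122ac islands except chr9:36900001-36901800. At chr9:36995001-36997200 H3K122ac had 282 reads over 104 and a fold of 10.5 (8.36 to 13.3), H3K27ac at chr9:36996001-36997200 had 124 over 63 and a fold of 2.86 (2.10 to 3.94), and H3K4me1 at chr9:36994401-36997200 had 201 over 126 and a fold of 2.75 (2.19 to 3.46). This was the only H3K27ac island in the 230 kb of the window.

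The 5 PAX5 islands without H3K27ac were not weak in fold against the whole H3K122ac list. The island at chr9:36966201-36967200 had 80 reads over 32 and a fold of 9.68 (6.35 to 15.1), without H3K4me1. Also without H3K4me1, chr9:37037001-37037800 had 48 reads over 22 and a fold of 8.45 (5.0 to 14.7), and chr9:36878801-36880000 had 58 over 27 and a fold of 8.32 (5.18 to 13.7). With H3K4me1, chr9:37027801-37030000 had 124 reads over 69 and a fold of 6.96 (5.14 to 9.48), and chr9:36900001-36901800 had 95 over 66 and a fold of 5.57 (4.03 to 7.75). These intervals overlap one another, and no order among the 5 was tested. All lay between percentiles 52.5 and 76.8 of their list, and the nearest H3K27ac island was 23600 to 112400 bp away.

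Background counts were low in these islands. PAX5 H3K122ac islands held 34.8 background reads per kb, against a median of 52.5 over the list, and the part of this in the folds was not tested. They were not ranked against H3K122ac islands of like length and background. At few background reads only higher folds pass the calling limit. An H3K27ac signal below the calling limit would not be listed either. Among H3K27ac islands of the whole list with a length and a background count within 80 to 120% of each of these 5 places, the lowest folds called were 1.33 to 2.29, the 5th percentiles 1.72 to 2.72 and the medians 2.70 to 3.82. H3K27ac of lower fold than such islands may not have been detectable at this depth.

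H3K4me1 at PAX5 overlapped H3K122ac in part. Of 7 joined regions, 3 held both marks, 3 held H3K122ac alone and 1 held H3K4me1 alone. The H3K4me1 island with the highest fold, chr9:37027801-37030800, had 201 reads over 84 and a fold of 4.12 (3.18 to 5.38), at the percentile 79.5. That at chr9:36900001-36900800 had 56 over 24 and a fold of 4.02 (2.45 to 6.78). Both met H3K122ac and neither met H3K27ac. A short one, chr9:37025601-37026200, met neither acetylation, with 53 reads over 35 and a fold of 2.61 (1.67 to 4.12).

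EBF1, the longest window at 430 kb, was empty over its first 334.4 kb, where no island of any mark was found. All of its islands lay in the remainder, and 97.5% of the window was free of islands. Its 3 H3K122ac islands each met H3K27ac and H3K4me1, against 73.9% of the whole H3K122ac list. At chr5:158521601-158523200 H3K122ac had 170 reads over 81 and a fold of 8.13 (6.20 to 10.7), H3K27ac at chr5:158521801-158522200 had 77 over 29 and a fold of 3.86 (2.49 to 6.14), and H3K4me1 at chr5:158521401-158523200 had 143 over 81 and a fold of 3.04 (2.3 to 4.04).

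Next to it, H3K122ac at chr5:158525001-158529200 was broader and weaker, with 205 reads over 170 and a fold of 4.67 (3.79 to 5.76). H3K27ac took up 1000 of these 4200 bp, at chr5:158525201-158526200, with 65 reads over 40 and a fold of 2.36 (1.57 to 3.60). H3K4me1 there was split into chr5:158525001-158525800, with a fold of 3.06 (2.13 to 4.43), and chr5:158527001-158529800, with 1.85 (1.47 to 2.31). The third place, chr5:158444401-158445200, stood alone with 67 H3K122ac reads over 37 and a fold of 7.01 (4.63 to 10.8). H3K27ac at chr5:158444601-158445400 had 50 over 38 and a fold of 1.91 (1.23 to 3.0), and H3K4me1 at chr5:158444401-158445400 had 85 over 51 and a fold of 2.87 (2.01 to 4.15). Of the 7 EBF1 H3K4me1 islands 3, with folds of 1.76 to 2.66, met neither acetylation, against 22.2% of the whole list. This difference was not tested.

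RUNX1 held long islands of all 3 marks, although 48.2% of its window had no H3K122ac island. Its 26 H3K122ac islands, 55 H3K27ac islands and 13 H3K4me1 islands left only 7.72% of the window free, and held 0.0743%, 0.0961% and 0.0826% of the reads inside islands of their lists. Every one of the 26 H3K122ac islands met both H3K27ac and H3K4me1, against 73.9% of the whole H3K122ac list. Of 13 H3K4me1 islands 13 met H3K27ac, against 70.0% of the whole H3K4me1 list. H3K27ac covered 84.6% of this window and H3K4me1 76.1%, so an overlap of 1 bp was likely for any island here. The part of this coverage in these shares was not tested. An H3K4me1 island at chr21:36334601-36436400 spanned 101800 bp, crossing the upper edge of the window. It was the second longest of the 113669 H3K4me1 islands, with 15769 reads over 7647 and a fold of 3.55 (3.46 to 3.65). Another, chr21:36263601-36323800, spanned 60200 bp and was the 24th longest, with 8961 reads over 4289 and a fold of 3.60 (3.47 to 3.73).

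H3K122ac and H3K27ac were long at RUNX1 as well. H3K122ac at chr21:36350801-36373400 spanned 22600 bp, at rank 127 by length, with 2403 reads over 1779 and a fold of 5.23 (4.92 to 5.56). H3K27ac at chr21:36350801-36370800 spanned 20000 bp, at rank 134, with 3414 reads over 1586 and a fold of 3.13 (2.95 to 3.33). Both islands began at the same base.

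The strongest H3K122ac places of RUNX1 reached similar folds at 4 separate positions. The highest, chr21:36395601-36402400, had 1075 reads over 481 and a fold of 8.65 (7.76 to 9.66), and chr21:36254401-36264000 had 694 over 335 and a fold of 8.02 (7.03 to 9.17). At chr21:36414401-36432000 there were 2842 reads over 1414 and a fold of 7.78 (7.30 to 8.30), and at chr21:36276801-36287800 1692 over 843 and a fold of 7.77 (7.15 to 8.45). Their intervals overlap, and their percentiles were 67.8 to 72.3, lower than those of the main islands of SPI1 and CEBPA.

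The highest H3K27ac fold of the 5 windows was also in RUNX1, inside the second of those places. At chr21:36259401-36261000 H3K27ac had 293 reads over 55, a fold of 7.75 (5.79 to 10.5) and the percentile 98.5. Background was low there, at 34.4 reads per kb against 74.3 over all RUNX1 H3K27ac islands, and its part in that fold was not tested. With more background, chr21:36276801-36285200 had 2549 H3K27ac reads over 604 and a fold of 6.14 (5.62 to 6.72), at the percentile 96.1. H3K4me1 ended at the first of these places: its island chr21:36249601-36260800, with a fold of 3.73 (3.35 to 4.16), stopped inside the H3K122ac island, and the next H3K4me1 island began before the H3K122ac island ended.

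Counted by island, RUNX1 lay low in the H3K122ac and H3K4me1 lists and near the middle of the H3K27ac list. Only 6 of 26 H3K122ac islands exceeded the list's median fold of 5.34, and 5 of 13 H3K4me1 islands exceeded 2.72, while 26 of 55 H3K27ac islands exceeded 2.27. Those 5 H3K4me1 islands spanned 180.8 kb, against 37.6 kb for the other 8, so by length most of this mark lay above its median. The lowest H3K122ac fold, 1.41 (1.07 to 1.84), belonged to chr21:36266201-36269200, with 77 reads over 211. A place where H3K27ac and H3K4me1 had the same ends, chr21:36325001-36330600, held 434 background reads in both lists, with 659 H3K27ac reads and 748 H3K4me1 reads, for folds of 2.21 and 2.97.

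The RUNX1 window was uneven along its length. A point, chr21:36249401, was chosen after the values were seen, as the start of its first joined region with more than 5 H3K122ac islands. This choice used the H3K122ac islands and a region joined from the islands of every mark. The split of each mark at the point, its folds on either side, and overlap with H3K122ac therefore follow in part from it. From the point upwards lay 24 of the 26 H3K122ac islands, in 185.6 kb. In the 99.4 kb below it there were 2, chr21:36179601-36180800 with 43 reads over 50 and a fold of 3.33 (2.16 to 5.11), and chr21:36237401-36238600 with 76 over 119 and a fold of 2.47 (1.83 to 3.32). H3K27ac did not stop there: 18 of its islands, together 76.8 kb long, lay below the point. Of these 2 met an H3K122ac island, against 30 of 37 above the point and 41.9% of the whole H3K27ac list. An H3K122ac signal below the calling limit would not be listed, and its part in this was not tested. Folds of these lower H3K27ac islands ran from 1.48 to 2.50, and summed over them the fold was 2.02, against 2.91 above the point. H3K4me1 was weak below the point too, at 1.61 summed over 8 islands, against 3.55 over 5 above it. Background densities were alike, at 68.9 and 76.8 reads per kb of H3K27ac island.

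**Figure D3:**
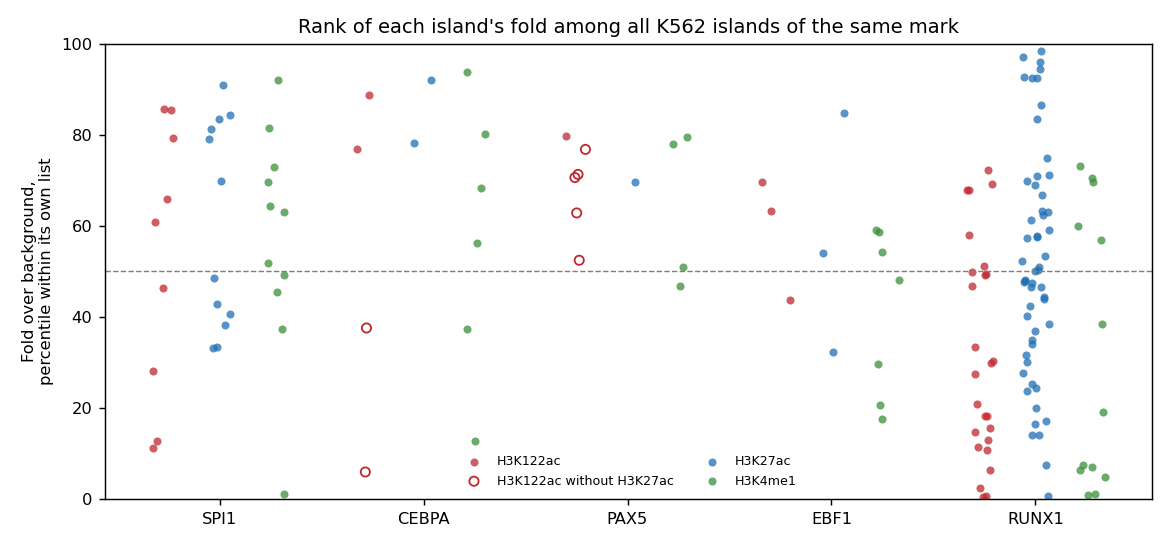
Rank of the fold of each island within its own K562 list (vertical axis, percentile; islands with at least 10 background reads), by window and mark. Open circles are H3K122ac islands that met no H3K27ac island; 5 of them lie in PAX5, between percentiles 52.5 and 76.8, and 2 in CEBPA, while RUNX1 H3K122ac reaches no higher than 72.3.

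Summed over each window, H3K122ac folds were 8.71 (8.25 to 9.20) for SPI1, 8.31 (7.27 to 9.52) for PAX5, 8.16 (7.32 to 9.12) for CEBPA, 5.94 (5.11 to 6.92) for EBF1 and 4.64 (4.52 to 4.76) for RUNX1. The intervals of the first 3 overlap, and EBF1 and RUNX1 stood below them with separate intervals. H3K27ac gave 4.22 (3.53 to 5.05) for CEBPA, 3.44 (3.25 to 3.64) for SPI1, 2.86 (2.10 to 3.94) for PAX5, 2.65 (2.60 to 2.70) for RUNX1 and 2.61 (2.05 to 3.34) for EBF1. For this mark RUNX1 lay below CEBPA and SPI1 with separate intervals, and EBF1 below CEBPA, while all other pairs overlap. H3K4me1 gave 3.56 (3.18 to 3.98) for CEBPA, 3.40 (3.22 to 3.59) for SPI1, 3.27 (2.82 to 3.81) for PAX5, 3.22 (3.16 to 3.28) for RUNX1 and 2.40 (2.13 to 2.70) for EBF1, and only EBF1 stood apart. A sum over called islands leaves out whatever was not called, and long weak islands, as in RUNX1, lower it.

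Background density also differed between the windows. In H3K122ac islands it was 58.2 reads per kb in SPI1, 48.8 in CEBPA, 34.8 in PAX5, 43.6 in EBF1 and 76.8 in RUNX1. As scaled excess per kb of island (ChIP reads over the library ratio, minus background reads), H3K122ac was 448 in SPI1, 349 in CEBPA, 254 in PAX5, 216 in EBF1 and 279.6 in RUNX1. RUNX1 thus stood below PAX5 by fold and above it by this excess, for which no interval was computed. Their order may therefore depend on the measure. SPI1 had the highest value by both, though by fold not beyond the intervals of PAX5 and CEBPA. Copy number of each locus in this line was not measured, and its part in the background was not tested.

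**Figure D4:**
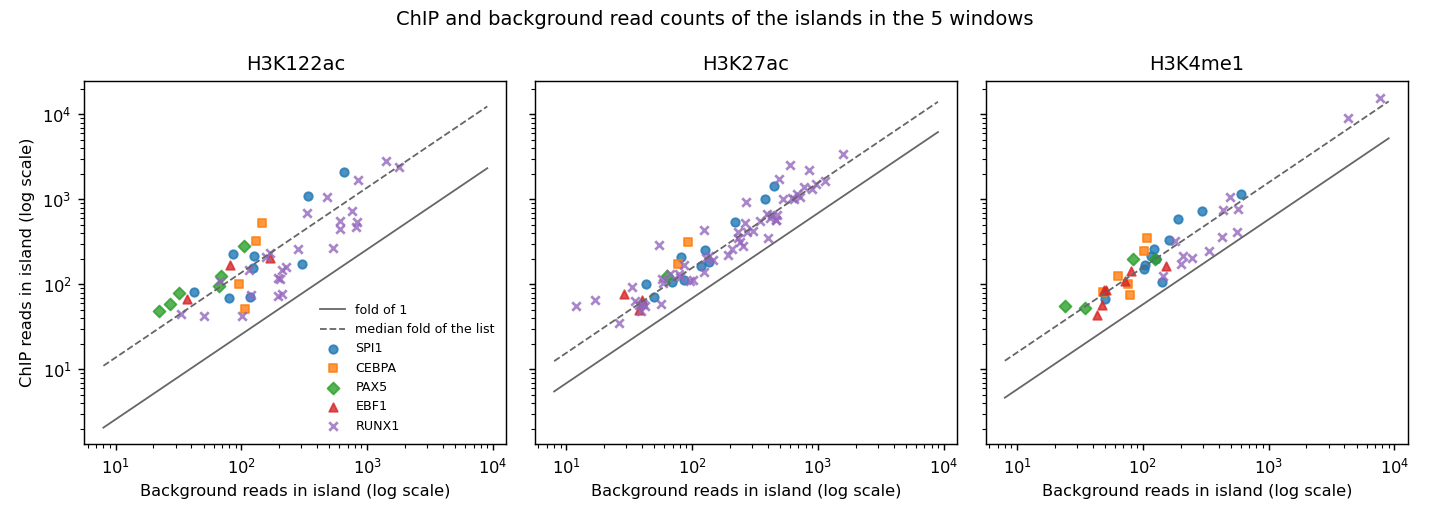
ChIP reads against background reads in each island of the 5 windows (both axes on a log scale), a panel per mark; the solid line is a fold of 1 and the dashed line the median fold of the list. PAX5 H3K122ac islands lie above the dashed line at low counts, from 48 reads over 22 background reads, and 20 of the 26 RUNX1 H3K122ac islands lie below it.

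Raw counts showed the library ratios at work. In the 5 windows 28 of 48 H3K122ac islands held more ChIP than background reads, against 65.2% of that list. For H3K27ac it was 72 of 73 islands, against 93.3%, and for H3K4me1 33 of 41, against 83.7%. The H3K122ac islands with no more ChIP than background reads were 16 in RUNX1, 3 in SPI1 and 1 in CEBPA, and PAX5 and EBF1 had 0 of 6 and 0 of 3.

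Over the 5 windows together, 41 of 48 H3K122ac islands met H3K27ac, 85.4% (Wilson 95% interval 72.8 to 92.8%), near the 78.1% of the whole list. Among islands with a fold of 3 or more in every list the share was 39.4%, a limit that falls higher in the H3K27ac list, whose folds run lower. H3K4me1 was met by 44 of 48, 91.7% (80.4 to 96.7%), near 85.8%. In the opposite direction 48 of 73 H3K27ac islands met H3K122ac, 65.8% (54.3 to 75.6%), against 41.9% of the list, and 67 of 73 met H3K4me1, 91.8% (83.2 to 96.2%), against 69.4%. Of 41 H3K4me1 islands, 28 met H3K122ac, 68.3% (53.0 to 80.4%), against 54.2%, and 29 met H3K27ac, 70.7% (55.5 to 82.4%), against 70.0%.

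The H3K122ac and H3K27ac shares depended on RUNX1. Without it 15 of 22 H3K122ac islands met H3K27ac, 68.2% (47.3 to 83.6%), and 16 of 18 H3K27ac islands met H3K122ac, 88.9% (67.2 to 96.9%). The share of H3K122ac islands with H3K4me1 was then 81.8%, of H3K27ac islands with H3K4me1 94.4%, of H3K4me1 islands with H3K122ac 75.0%, and of H3K4me1 islands with H3K27ac 57.1%. The 7 H3K122ac islands without H3K27ac were 5 in PAX5 and 2 in CEBPA, and SPI1, EBF1 and RUNX1 had none among 9, 3 and 26. The 4 H3K122ac islands without H3K4me1 were 3 in PAX5 and 1 in CEBPA. Of the 25 H3K27ac islands without H3K122ac, 23 were in RUNX1 and 2 in SPI1. Whether these shares differ between loci was not tested, since neighbouring islands of 1 library are not independent.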

How the data were processed

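Islands of the K562 H3K122ac, H3K27ac and H3K4me1 libraries were analysed as deposited. The submitters' processing notes name Bowtie 0.12.8, HOMER 4.3 and SICER 1.1, without saying what each did, and the build hg19. Per the labels of the lists, islands were built from 200 bp windows with gaps of 200 bp (H3K27ac) or 600 bp (others) at a false discovery rate of 0.01. For each island the authors deposited a ChIP read count, a background read count, a p-value and q-value against background, and a fold, the ratio of both counts over 1 library ratio per list. The background library is not named in the sources used here, so whether it was the K562 input is not known. Islands with the same ends always had the same background count in any pair of lists.

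An island belonged to a window if it overlapped it by at least 1 bp, and islands met if they shared at least 1 bp. Coordinates are 1-based. Coverage counted bases inside the window, and counts were taken over whole islands. Fold intervals are exact (Clopper-Pearson) and shares carry Wilson intervals at 95%, computed with SciPy 1.17.1 and statsmodels 0.14.6 in Python 3.11.15. Code for overlaps was tested on simulated intervals. Named islands were, per window and mark, that of highest fold with at least 10 background reads, the longest, every island where there were 5 or fewer, and H3K122ac islands without H3K27ac. Further islands were named after their values were seen. The windows, lists and settings were chosen with earlier results of these data known. Promoters, other blood gene lists and sequences were not scored, because no hg19 annotation or sequence was used here.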

Additional observations from a re-analysis of the deposited data

How the results depend on the processing

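The 3 overlap shares and 15 coverages were recomputed under 85 alternatives in all, and 56 values stayed within the Wilson interval of the reported one, which for coverage counts 200 bp steps as units although neighbouring steps are not independent. With 1 library per mark, the cause of the other changes was not tested. Requiring a fold of 3 or more in every list lowered the share of H3K122ac islands with H3K27ac to 39.4% and with H3K4me1 to 72.7%, and raised that of H3K27ac islands with H3K122ac to 94.4%. Folds run lower in the H3K27ac list, so this limit removes more of it by construction. It left H3K122ac over 40.4% of SPI1 and 33.2% of RUNX1. H3K27ac kept 32.7% of SPI1, 0 of PAX5, 0.093% of EBF1 and 19.7% of RUNX1. H3K4me1 kept 42.2% of SPI1, 7.71% of CEBPA, 1.65% of PAX5, 0.605% of EBF1 and 61.0% of RUNX1. H3K27ac thus covered less of RUNX1 than of SPI1 under this limit, the opposite of the order over all islands. A q-value of at most 1e-10 left H3K27ac over 0.093% of EBF1 and 80.2% of RUNX1, and H3K4me1 over 69.0% of RUNX1. Windows widened by 20 kb on each side gave H3K122ac 44.8% of SPI1, 20.9% of CEBPA and 47.6% of RUNX1, H3K27ac 77.5% of RUNX1, and H3K4me1 3.19% of EBF1 and 70.0% of RUNX1. Islands wholly inside the window gave H3K122ac 33.1% of SPI1 and H3K4me1 40.9% of RUNX1, as a long island crosses each edge. H3K27ac islands joined across 600 bp met H3K122ac in 82.8% and covered 90.9% of RUNX1. Leaving out the RUNX1 window, an alternative added after seeing the data, gave 68.2% of H3K122ac islands with H3K27ac and 88.9% of H3K27ac islands with H3K122ac. Covering 50% of the island moved no share out of its interval. No paired analysis was possible because each K562 mark has 1 library. The limits of depth are those of the calling threshold: enrichment too weak to be called, is not in the lists.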
